A study of Mus musculus with 12 samples.

Results

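The conjugating enzymes of the Gst, Ugt and Sult families were examined in pericentral and periportal hepatocytes of fed and fasted mice. Members were chosen by name: glutathione S-transferase symbols (Gst classes a, k, t, m, o, p and z, and Mgst), UDP-glucuronosyltransferase symbols (Ugt) and sulfotransferase symbols (Sult), with at least 10 counts in at least 3 of the 12 columns. Of the 28030 genes in the table, 66 had such a name and 49 met the count minimum: 21 Gst, 17 Ugt and 11 Sult genes. Just inside the minimum lay Ugt1a8 with 3 columns at 10 counts or more, Gstp2 with 6 and Sult5a1 with 9, and just outside it Gstp3, Mgst2 and Ugt2b38 with 2 columns each. All 49 also passed the expression filter of the test. The 12 libraries form 4 groups of 3: pericentral (PC, next to the central vein) and periportal (PP, next to the portal tract) hepatocytes of fed mice, and the same zones of fasted mice. All groups were wild-type female mice, 12 weeks old, on normal chow. All had first been accustomed, over 3 days, to a daily cycle of 16 h without food and 8 h with it. The fed groups had eaten for 4 h, with water holding 20% sucrose, and the fasted groups had gone 24 h without food or sucrose. Hepatocytes of each zone were isolated with digitonin, a detergent. The labels call the libraries biological replicates, and leave unsaid whether same-numbered PC and PP libraries share a mouse, so the p-values speak only of the spread among these libraries.

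Conjugation is the step of detoxification in which a small polar group is joined to a drug, a hormone or a breakdown product so that it can be excreted. Gst enzymes add glutathione to reactive electrophiles, Ugt enzymes add a sugar acid from UDP-glucuronate to phenols, steroids, bilirubin and bile acids, and Sult enzymes add sulfate from the donor PAPS. The liver is a main site of all of these reactions, and its lobule is divided into zones whose hepatocytes carry different sets of metabolic enzymes.

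Libraries held 16245846 to 27449412 estimated counts, of which the members took 0.932% to 1.82%. Levels are given in CPM, the usual counts per unit of library size after TMM scaling, and the libraries of a group are listed in the order of their replicate numbers, so that library 1 is replicate 1. Zone labels were checked against markers: edgeR called 5 of 6 pericentral markers higher in PC in fed mice and 6 of 6 in fasted mice, and called 3 of 6 periportal markers lower in PC in both, while all 6 of either list did not overlap between zones in both states. Summed markers of other liver cells were low beside the hepatocyte markers, whose sum was at least 72970 CPM: Kupffer cell markers reached at most 6.99 CPM, endothelial markers 18.1, stellate cell markers 14.4, lymphocyte markers 2.55 and cholangiocyte markers 47.4. The cholangiocyte sum, of 6 genes, was lower in PC without overlap, at 23.7 to 27.9 CPM in fed PC against 36.1 to 47.4 in fed PP and 13.6 to 25.1 in fasted PC against 33.7 to 37.3 in fasted PP. Of its 3 tested genes, Sox9 was called lower in PC in both states (log2 -1.80 and -1.70, edgeR adjusted p = 0.00376 and 0.00657), Spp1 in fasted mice (-1.51, 0.00232) but not in fed mice (-0.84, 0.0522), and Krt7 in neither (-0.29 and -0.45). The other 3 were near 0: Krt19 reached at most 0.730 CPM, Epcam 0.547 and Cftr 0.104. The part of these cells in the zone differences was not tested. Libraries of the fasted PC group differed from each other. In fasted PC library 1, Glul, glutamine synthetase of the cells around the central vein, stood at 172.0 CPM, against 3639 and 2353 CPM in libraries 2 and 3. Fasted PC library 2 was the highest of its group for 16 of 19 known targets of the stress regulator Nrf2 (no member is on that list). The share over all tested genes is not given here. That library also held 246.1 CPM of summed erythroid markers, against 4.48 and 15.4 CPM in libraries 1 and 3. Calls of members that use the fasted PC group are therefore also given without library 1 and without library 2. In bulk RNA, fewer cells of a type and less RNA per cell cannot be told apart.

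Between zones, 13 of 49 members were called in fed mice and 12 in fasted mice, at an edgeR adjusted p (Benjamini-Hochberg over 12086 genes) under 0.05. In fed mice 8 were higher and 5 lower in PC, which is 26.5% of the members, and 4.72% of all tested genes were called (2.24% higher and 2.47% lower). In fasted mice 9 were higher and 3 lower in PC, 24.5% of the members, against 6.40% of all tested genes (3.35% higher and 3.05% lower). The median log2 fold change (PC over PP) of the members was 0.09 in fed and 0.40 in fasted mice, and that of all tested genes was -0.01 and -0.00. The PC and PP libraries did not overlap for 24 members in fed mice (16 higher, 8 lower), where 26.0% of all tested genes did not overlap (12.9% and 13.1%), and for 23 in fasted mice (18 higher, 5 lower), where 22.0% did not (11.4% and 10.6%). Members were also more abundant than other genes, with a median of 109.0 CPM against 13.2 CPM over all tested genes, and abundant genes have a smaller counting error.

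The fed and fasted zone comparisons share no library in their means. The spread was estimated over all 12 libraries, so the calls of each also rest on the libraries of the other. Called in the same direction in both were 9 members, 69.2% of the 13 called in fed and 75.0% of the 12 called in fasted mice. Gsta3, Gstm2, Gstm6, Mgst1, Ugt1a6b and Ugt1a10 were higher in PC, and Gsto1, Sult5a1 and Ugt1a9 were lower. Of all tested genes, 390 were called in 1 direction in both states, 68.4% of those called in fed and 50.4% of those called in fasted mice. The sign was the same in both feeding states for 39 of 49 members and for 67.2% of all tested genes. In fed mice the 8 higher members became 5 without fed PC library 2 or fed PP library 1, and 4 without fed PC library 3, fed PP library 2 or fed PP library 3. The 5 lower members became 2 or 3 without any 1 of the 6 fed libraries. In fasted mice the 9 higher members became 11 without fasted PC library 1 and 8 without fasted PC library 2.

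**Figure D1:**
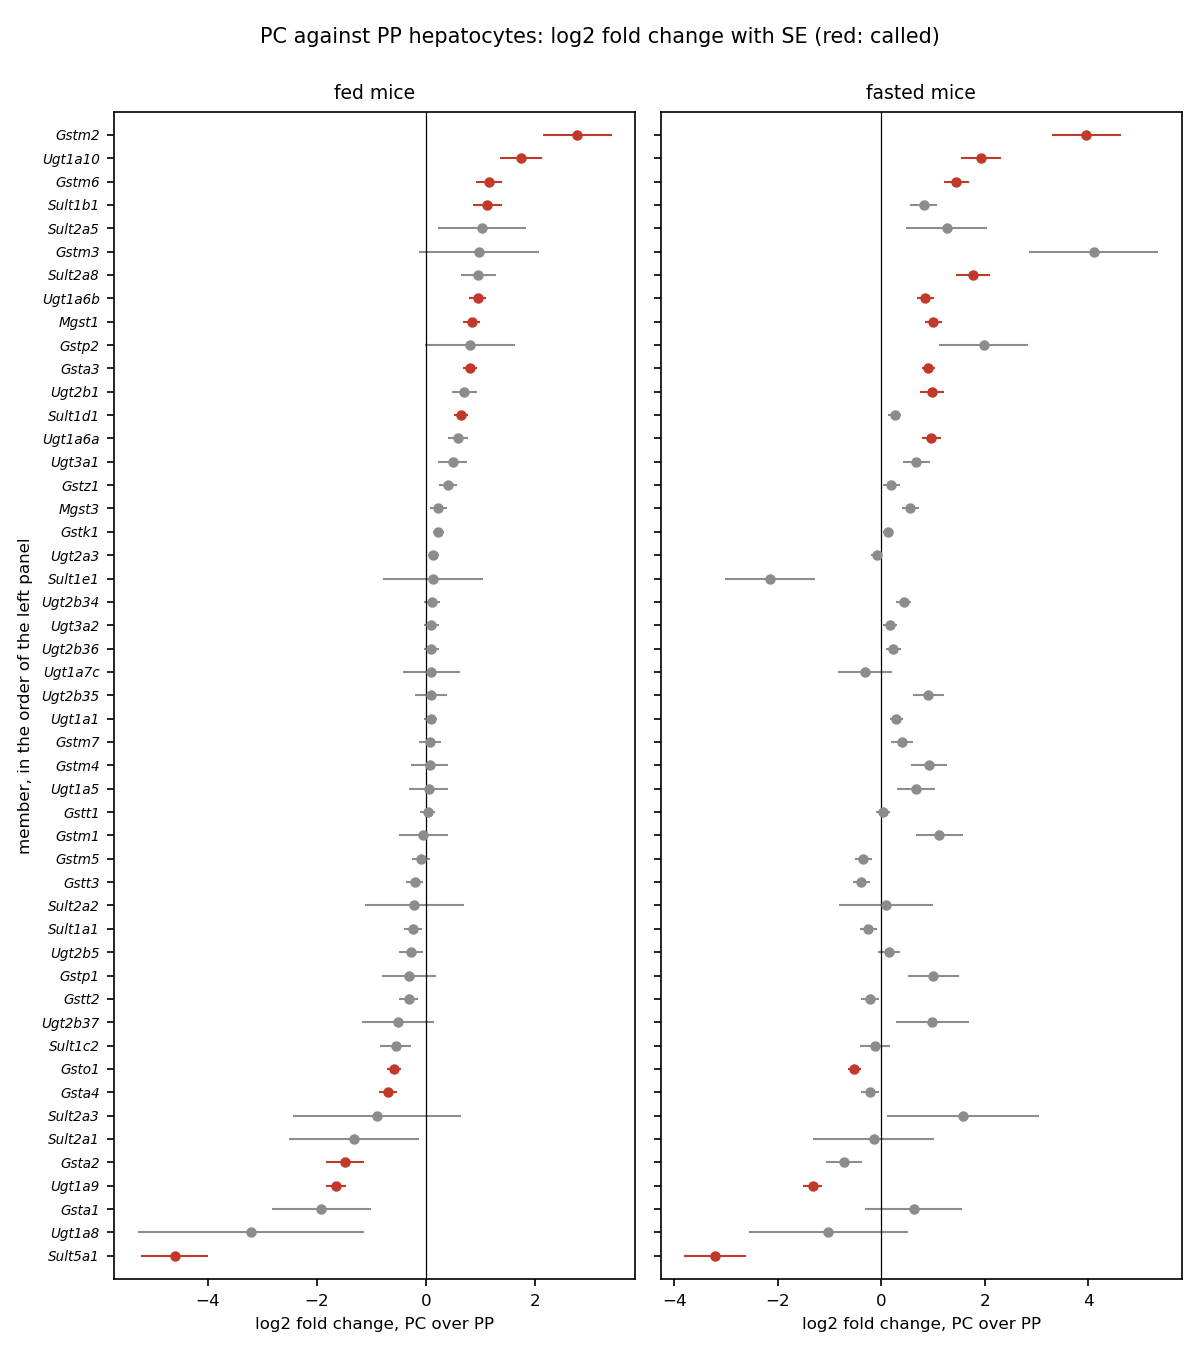
Log2 fold change of PC over PP for each of the 49 members in fed and in fasted mice (x axis, log2 units, lines are the standard error), in red for members called by edgeR and in grey for the others. Gstm2, at 2.77 in fed and 3.97 in fasted mice, and Sult5a1, at -4.61 and -3.21, lie farthest from 0 among the called members.

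Among the Gst genes, the abundant members Gsta3 and Mgst1 were higher in PC, while Gstm1, also abundant, was not called between zones. Gsta3, an alpha-class transferase known in mice for detoxifying the aflatoxin epoxide, stood at 2057, 2069 and 2279 CPM in fed PC and at 1241, 1165 and 1251 CPM in fed PP. After fasting it stood at 1610, 1737 and 1701 CPM in PC and at 954.2, 992.3 and 733.9 CPM in PP. Every PC library lay above every PP library of the same feeding state. The log2 fold change was 0.81 ± 0.12 in fed mice (SE; edgeR adjusted p = 0.00216) and 0.91 ± 0.12 in fasted mice (0.00101). Mgst1, the membrane-bound microsomal transferase, stood at 2273, 2355 and 2126 CPM in fed PC against 1361, 1254 and 1159 in fed PP, and at 1596, 2286 and 2197 CPM in fasted PC against 974.7, 1180 and 861.3 in fasted PP. Its groups did not overlap in either feeding state, with log2 fold changes of 0.84 ± 0.16 (edgeR adjusted p = 0.00697) and 1.01 ± 0.16 (0.00213). Both genes were called in both states whichever library was left out, in fasted mice at 0.94 (Gsta3) and 1.15 (Mgst1) without fasted PC library 1 and at 0.89 and 0.92 without library 2. Gsta3 spans chr1:21240589-21265661 and Mgst1 spans chr6:138140316-138156755 (GRCm38, plus strand in both cases). Per kilobase of transcript, Mgst1 and Gsta3 had the highest levels of all 49 members, at 1791 and 1262 CPM per kb over all libraries, followed by Gstm1 at 1152 CPM per kb. That order depended on the length used: over the union of a gene's exons Gstm1 was first (827.4 CPM per kb), Mgst1 next (812.4) and Gsta3 at rank 5 (341.3).

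The promoters of these genes, from RefSeq, are shown because both genes were higher in PC in both feeding states and both windows hold a match to TGACNNNGC, the core of the antioxidant response element read by Nrf2. The windows are chr1:21240335-21240634 for Gsta3 and chr6:138140277-138140576 for Mgst1 (GRCm38.p6, plus strand), 250 bases before to 50 after the start site, 5′ to 3′, and capitals mark the match (on the reverse strand in Mgst1).
Gsta3: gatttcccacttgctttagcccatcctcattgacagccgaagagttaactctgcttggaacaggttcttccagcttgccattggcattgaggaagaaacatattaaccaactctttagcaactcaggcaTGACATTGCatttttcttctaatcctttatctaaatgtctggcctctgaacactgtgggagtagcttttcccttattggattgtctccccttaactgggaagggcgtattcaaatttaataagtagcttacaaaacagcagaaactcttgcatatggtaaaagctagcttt
Mgst1: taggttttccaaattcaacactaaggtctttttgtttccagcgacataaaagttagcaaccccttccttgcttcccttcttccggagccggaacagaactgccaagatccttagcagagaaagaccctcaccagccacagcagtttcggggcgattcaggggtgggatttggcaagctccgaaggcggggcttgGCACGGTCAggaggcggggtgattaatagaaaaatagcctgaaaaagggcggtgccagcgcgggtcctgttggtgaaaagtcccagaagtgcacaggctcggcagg

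Across the promoter table, 12.4% of 32851 windows of the same length held TGACNNNGC on either strand, and 4 of the 53 windows of 43 members did (7.55%), those of Gsta3, Mgst1, Gstm5 and Gstm7. GCGTG, the core bound by the aryl hydrocarbon receptor, was found in 32.4% of all windows and in 11 member windows (20.8%). A direct repeat read by nuclear receptors was found in 0.040% of all windows and in 0 member windows. CTTTGAT, the Tcf/Lef motif, was found in 3.73% of all windows and in 1 member window (1.89%), that of Sult2a8. Windows of TGACNNNGC and GCGTG can overlap, as on a shared stretch in Gstm5. These matches describe the letters of the windows only. Ugt3a2, Sult2a1, Sult2a2, Gstt2, Gsta4 and Ugt1a6b had no window in the table.

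Gsta2 and Gsta4 were lower in PC in fed mice, opposite to Gsta3. Gsta4, which is known for conjugating hydroxynonenal from lipid peroxidation, stood at 91.3, 81.1 and 84.8 CPM in fed PC and at 135.9, 135.7 and 145.3 CPM in fed PP, with no overlap (log2 -0.70 ± 0.17, edgeR adjusted p = 0.0327). In fasted mice its libraries overlapped, at 63.1, 108.4 and 66.2 CPM in PC and 85.8, 89.8 and 99.6 in PP (log2 -0.21, adjusted p = 0.562). Gsta2 stood at 46.9, 45.8 and 38.9 CPM in fed PC and at 120.3, 98.4 and 147.4 CPM in fed PP, without overlap (log2 -1.48 ± 0.35, edgeR adjusted p = 0.0369). In fasted mice Gsta2 stood at 41.8, 97.7 and 33.3 CPM in PC and 73.9, 107.2 and 103.4 in PP (log2 -0.72, adjusted p = 0.289). For both genes the fasted PC library that reached into the PP range was library 2. Without it, Gsta2 (-1.33, edgeR adjusted p = 0.00487) and Gsta4 (-0.50, 0.0267) were called lower in PC in fasted mice too.

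Both fed calls were close to the threshold. The call of Gsta4 ended without any 1 of the 6 fed libraries (edgeR adjusted p = 0.0705 to 0.153). That of Gsta2 ended without any 1 of the 6 fed libraries (0.0659 to 0.145), without fasted PP library 2 (0.0543) or 3 (0.0552), and with genes of low counts kept in the test (0.112). Gsta2 shares 60.7% of its 31-letter words with transcripts of other genes and Gsta1 shares 92.9%, so the division of counts between them is uncertain. Summed, Gsta1 and Gsta2 had a log2 fold change of -1.53 ± 0.39 in fed mice and were not called (edgeR adjusted p = 0.0533). Gsta1, Gsta2 and Gsta4 lie between 78182774 and 78355788 on chromosome 9, apart from Gsta3.

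In the mu class, which conjugates epoxides and quinones, Gstm2 had the largest zone difference among called members. Gstm2 stood at 92.0, 94.5 and 141.0 CPM in fed PC and at 12.2, 15.0 and 20.9 CPM in fed PP. In fasted mice it stood at 27.6, 222.0 and 145.7 CPM in PC and at 5.52, 10.6 and 8.98 CPM in PP. No PP library reached a PC library of the same feeding state, and the lowest PC value was that of fasted PC library 1, the library with little Glul. The log2 fold change was 2.77 ± 0.64 in fed mice (edgeR adjusted p = 0.0393) and 3.97 ± 0.68 in fasted mice (0.00834). In fasted mice Gstm2 stayed called without any 1 library, at 4.44 without fasted PC library 1 and 3.37 without library 2, but not when only the 6 fasted libraries entered the fit (edgeR adjusted p = 0.102). The fed call ended without any 1 of the 6 fed libraries (0.0774 to 0.139), fasted PC library 3 (0.0609), fasted PP library 2 (0.0519) or fasted PP library 3 (0.0555), and with genes of low counts kept (0.0899).

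Gstm6 stood at 90.4, 79.9 and 109.5 CPM in fed PC against 37.2, 48.2 and 40.6 in fed PP, and at 40.1, 91.5 and 74.2 CPM in fasted PC against 24.8, 25.0 and 25.2 in fasted PP. Its groups did not overlap in either state, with log2 fold changes of 1.15 ± 0.24 (edgeR adjusted p = 0.0166) and 1.46 ± 0.24 (0.00419). The fed call ended without fed PC library 3 (1.02, edgeR adjusted p = 0.0707), fed PP library 1 (0.0593) or fed PP library 3 (0.0641). The fasted difference was 1.72 without fasted PC library 1 and 1.19 without library 2, called both times. The 7 mu-class members lie between 107895821 and 108044894 on chromosome 3. Gstm1, the most abundant of them, was not called in either state: it stood at 1038, 1263 and 1063 CPM in fed PC against 1059, 1005 and 1410 in fed PP (log2 -0.05, edgeR adjusted p = 0.981). In fasted mice Gstm1 stood at 717.4, 3389 and 1231 CPM in PC against 622.2, 860.5 and 966.5 in PP (1.12 ± 0.45, 0.205). Of the other mu-class members, 0 of Gstm3, Gstm4, Gstm5 and Gstm7 were called between zones by edgeR, and DESeq2 called Gstm3 and Gstm4 in fasted mice.

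Gsto1, an omega-class enzyme known for reducing dehydroascorbate and disulfides, had the opposite pattern to Gsta3 and Mgst1. It stood at 88.4, 83.2 and 81.9 CPM in fed PC, 139.1, 124.8 and 117.4 in fed PP, 142.3, 120.5 and 106.0 in fasted PC, and 198.1, 167.4 and 163.8 in fasted PP. PC libraries lay below PP libraries in both states, by log2 -0.59 ± 0.12 in fed mice (edgeR adjusted p = 0.0146) and -0.52 ± 0.12 in fasted mice (0.0249). The fed call ended without fed PC library 2 (0.0770) or 3 (0.0724) or fed PP library 1 (0.0602) or 2 (0.0560). The fasted call ended without fasted PC library 2 (0.0999) or 3 (0.0893) or fasted PP library 1 (0.0750), and when only the fasted libraries entered the fit (0.0890), and it held without fasted PC library 1 (-0.64). Gsto1 spans chr19:47854970-47864790 (GRCm38, plus strand).

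The remaining Gst members were not called between zones by edgeR. Gstk1, the kappa-class enzyme of mitochondria and peroxisomes, stood at 101.2, 101.6 and 100.6 CPM in fed PC against 86.6, 86.3 and 86.3 in fed PP, apart by log2 0.23 ± 0.10 (edgeR adjusted p = 0.256), and its zones overlapped in fasted mice. Mgst3, a second microsomal enzyme, stood at 24.0, 29.4 and 23.9 CPM in fasted PC against 16.2, 21.9 and 14.1 in fasted PP, also without overlap and without a call by edgeR (0.57 ± 0.16, 0.0571), though DESeq2 called it (adjusted p = 0.0269), as did edgeR with genes of low counts kept (0.0467). Gstp1, the pi-class transferase, stood at 127.6, 195.9 and 106.8 CPM in fed PC against 169.4, 138.5 and 225.7 in fed PP, and at 106.6, 481.4 and 159.0 CPM in fasted PC against 125.3, 101.8 and 145.5 in fasted PP. Its log2 fold changes were -0.31 in fed mice and 1.00 ± 0.49 in fasted mice (edgeR adjusted p = 0.311), and 0.10 without fasted PC library 2, its highest library. Gstz1, which isomerises maleylacetoacetate in tyrosine breakdown, stood at 423.8, 416.3 and 427.1 CPM in fed PC against 329.8, 332.8 and 294.5 in fed PP, without overlap, at 0.41 ± 0.16 (edgeR adjusted p = 0.216). In fasted mice Gstz1 overlapped, at 462.3, 359.8 and 406.4 CPM in PC and 420.9, 392.2 and 258.5 in PP. The theta-class members stayed within 179.9 to 272.3 CPM (Gstt1), 127.5 to 220.3 CPM (Gstt3) and 29.5 to 53.1 CPM (Gstt2) over all 12 libraries. Exons of Gstz1 overlap Pomt2 and Gm6566 on the opposite strand, and the kit does not mark strand, so reads within the overlapping stretches cannot be told apart. Gstz1 shares 7.99% of its 31-letter words with Pomt2 and 2.60% with Gm6566.

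**Figure D2:**
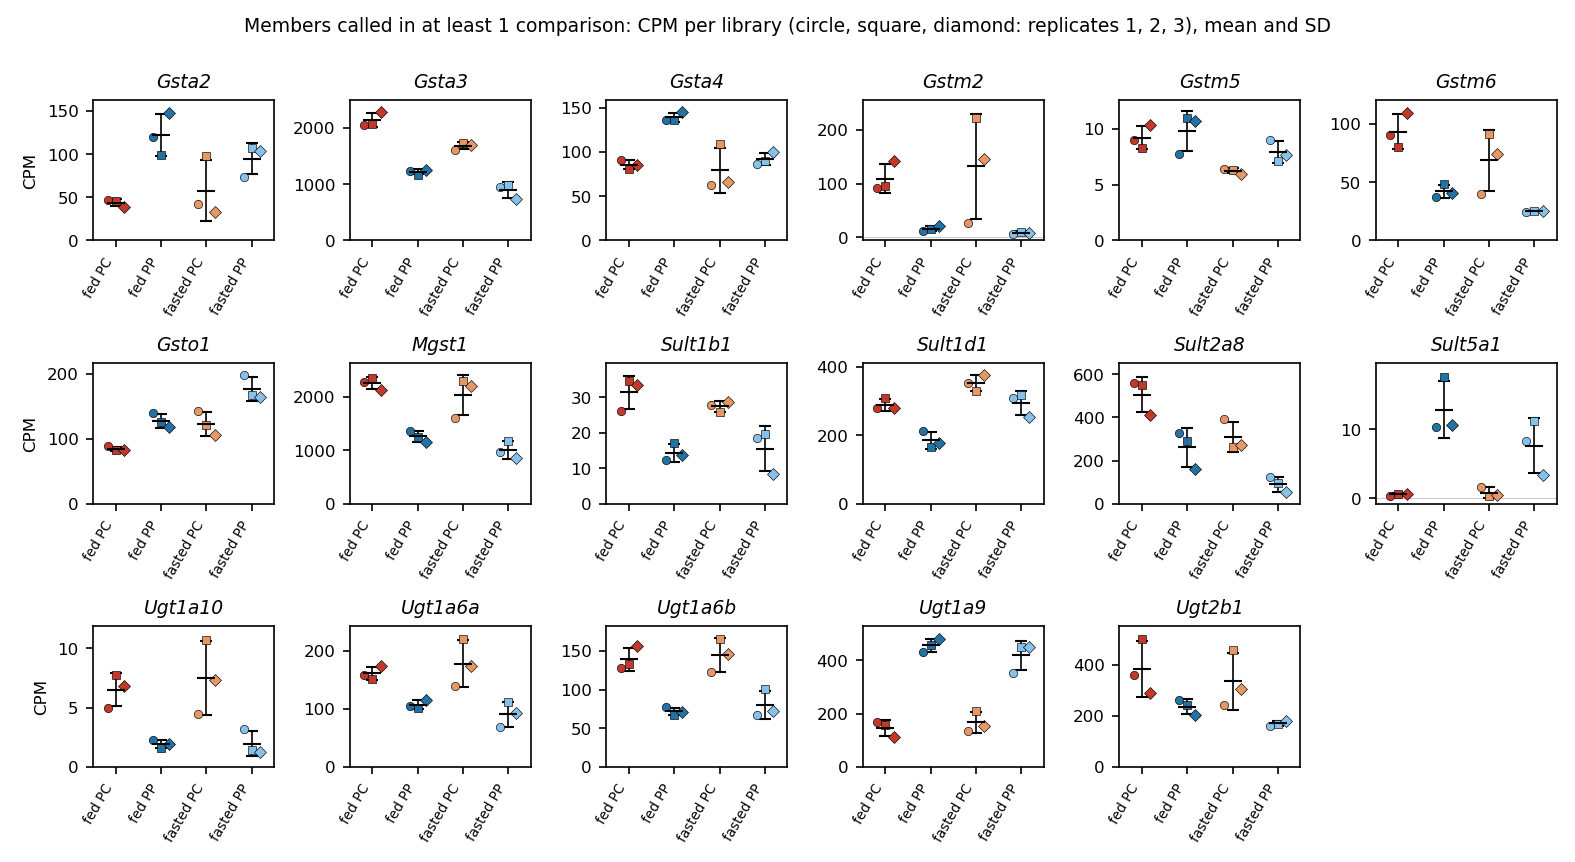
CPM per library (y axis) for the 17 members called in at least 1 comparison, with 1 point per library in each of the 4 groups and black lines for the group mean and SD. Gsta3 and Mgst1 lie higher in PC than in PP in both feeding states, and Ugt1a9, Gsto1 and Sult5a1 lie lower.

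The Ugt1a enzymes come from 1 locus on chromosome 1, between 88055388 and 88220002 (GRCm38, plus strand). Each of the 8 members has its own first exon of 879 to 954 bases, which encodes the part that binds the substrate, spliced to exons that all members share. The first shared exon is chr1:88215044-88215175. The junctions of 5 members are shown because these members carry most of the locus's counts or were called, and because the shared exons cannot tell them apart. Each line gives 30 bases of the member's own first exon in lower case and the first 30 bases of the shared exon in capitals, 5′ to 3′, from the GRCm38 genome.
Ugt1a1: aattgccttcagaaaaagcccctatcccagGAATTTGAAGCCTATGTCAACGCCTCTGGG
Ugt1a9: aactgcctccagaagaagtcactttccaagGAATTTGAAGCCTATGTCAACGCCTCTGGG
Ugt1a10: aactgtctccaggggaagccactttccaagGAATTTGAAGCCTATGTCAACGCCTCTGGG
Ugt1a6a: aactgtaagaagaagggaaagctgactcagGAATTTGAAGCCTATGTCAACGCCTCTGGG
Ugt1a6b: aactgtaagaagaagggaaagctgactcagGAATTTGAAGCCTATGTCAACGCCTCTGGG

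The capitals are the same in all 8 members. The lower-case side took 7 distinct sequences among the 8, with Ugt1a6a and Ugt1a6b identical over these 30 bases. Between 53.0% (Ugt1a6a) and 84.2% (Ugt1a6b) of the 31-letter words of each Ugt1a member occur in transcripts of another gene, so counts from the shared exons were divided by the model of the counting tool. Exons of the locus also overlap Gm20528 on the opposite strand.

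Ugt1a members differed between zones in opposite directions. Ugt1a9, known for glucuronidating bulky phenols and fatty acids, stood at 168.7, 157.3 and 110.9 CPM in fed PC and at 431.1, 458.7 and 478.6 CPM in fed PP. After fasting it stood at 136.8, 210.3 and 155.2 CPM in PC and at 354.5, 451.8 and 450.6 CPM in PP. No PC library reached a PP library. The log2 fold change was -1.65 ± 0.19 in fed mice (edgeR adjusted p = 0.000549) and -1.32 ± 0.19 in fasted mice (0.00128), and both calls held whichever library was left out, the fasted one at -1.20 without fasted PC library 1 and -1.52 without library 2.

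Ugt1a6b, whose class glucuronidates small flat phenols, was higher in PC. It stood at 128.1, 133.2 and 155.9 CPM in fed PC against 77.3, 67.8 and 70.6 in fed PP, and at 122.6, 165.7 and 146.4 CPM in fasted PC against 67.2, 100.4 and 72.5 in fasted PP. The groups did not overlap, at log2 0.95 ± 0.16 in fed mice (edgeR adjusted p = 0.00360) and 0.86 ± 0.16 in fasted mice (0.00608). Ugt1a6a, its close copy, stood at 158.1, 151.1 and 173.5 CPM in fed PC against 104.3, 101.4 and 115.6 in fed PP (0.59 ± 0.18, edgeR adjusted p = 0.0947). In fasted mice Ugt1a6a stood at 138.6, 220.5 and 173.8 CPM in PC against 68.6, 111.1 and 92.3 in PP, and was called (0.97 ± 0.18, edgeR adjusted p = 0.00706), though not when only the fasted libraries entered the fit (0.0636). Ugt1a6a did not overlap between zones in either state, and the calls of both genes held whichever library was left out. Without fasted PC library 1 the fasted differences were 1.11 (Ugt1a6a) and 0.95 (Ugt1a6b), and without library 2 they were 0.79 and 0.75.

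Ugt1a10, a low member named here after its values were seen, was also higher in PC in both states. It stood at 4.97, 7.72 and 6.86 CPM in fed PC against 2.30, 1.60 and 1.92 in fed PP, and at 4.48, 10.7 and 7.37 CPM in fasted PC against 3.21, 1.45 and 1.28 in fasted PP. Between 28 and 222 counts lay behind each value. The groups did not overlap, at log2 1.74 ± 0.38 in fed mice (edgeR adjusted p = 0.0185) and 1.93 ± 0.38 in fasted mice (0.00961). The fed call ended without fed PC library 2 (0.0765) or 3 (0.0619) or fed PP library 2 (0.0853) or 3 (0.0655), and the fasted call when only the fasted libraries entered the fit (0.0567). The fasted call held without fasted PC library 1 (2.20) and without library 2 (1.59). Ugt1a1, the enzyme that glucuronidates bilirubin and the most abundant member of the locus, was not called: it stood at 1466, 1300 and 1263 CPM in fed PC against 1335, 1267 and 1192 in fed PP (log2 0.09 ± 0.12, edgeR adjusted p = 0.805). In fasted mice Ugt1a1 stood at 1698, 1746 and 1542 CPM in PC against 1181, 1492 and 1396 in PP, without overlap (0.29 ± 0.12, 0.191).

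The summed counts of the locus did not differ between zones beyond their spread. The sum had a log2 fold change of -0.07 ± 0.12 in fed mice (edgeR adjusted p = 0.855) and 0.19 ± 0.12 in fasted mice (0.473), with group means of 1972 CPM in fed PC, 2073 in fed PP, 2353 in fasted PC and 2071 in fasted PP. What differed was the makeup of that sum. Ugt1a9 took 7.38% ± 1.45 of it in fed PC and 22.0% ± 1.81 in fed PP (SD, n = 3), and 7.06% ± 1.01 in fasted PC and 20.3% ± 0.938 in fasted PP. Ugt1a1 took 68.1% ± 2.52 in fed PC and 61.0% ± 2.38 in fed PP, and 70.8% ± 4.63 and 65.7% ± 1.74 in fasted mice. Ugt1a5 ranged from 76.6 to 238.0 CPM over all libraries, and Ugt1a7c and Ugt1a8 reached at most 2.37 and 0.853 CPM. Ugt1a6a took 8.18% and Ugt1a6b 7.08% in fed PC, against 5.18% and 3.47% in fed PP. These shares are on the scale of estimated counts and are described without a test.

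**Figure D3:**
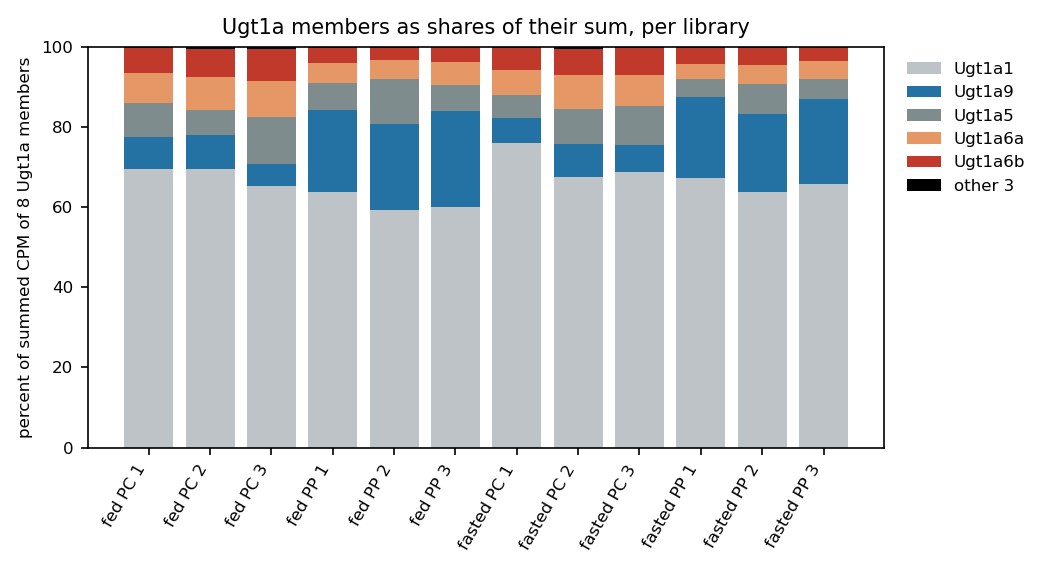
Share of the summed Ugt1a counts (y axis, percent) in each of the 12 libraries (x axis), as stacked bars of estimated counts per gene. These include counts from the shared exons as divided by the counting tool. Ugt1a1, Ugt1a9, Ugt1a5, Ugt1a6a and Ugt1a6b are drawn apart, and the remaining members together. The Ugt1a9 share lies between 5.72% and 8.42% in the 6 PC libraries and between 19.3% and 24.1% in the 6 PP libraries.

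The promoters of Ugt1a9 and Ugt1a10, also from RefSeq, are shown because they were the most alike of the locus while the genes had opposite zone differences. Aligned, 232 of 326 columns were identical (71.2%), and every other pair of Ugt1a promoters had 46.6% to 55.2% identical columns. The windows are chr1:88070529-88070828 for Ugt1a9 and chr1:88055161-88055460 for Ugt1a10 (GRCm38.p6, plus strand), and capitals mark the longest run common to both, 32 bases.
Ugt1a9: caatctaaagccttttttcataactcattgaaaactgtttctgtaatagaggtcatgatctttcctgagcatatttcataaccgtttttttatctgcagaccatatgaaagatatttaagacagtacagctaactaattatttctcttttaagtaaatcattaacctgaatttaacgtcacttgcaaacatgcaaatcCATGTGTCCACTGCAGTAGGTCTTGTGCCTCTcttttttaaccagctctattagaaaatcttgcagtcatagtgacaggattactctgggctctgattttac
Ugt1a10: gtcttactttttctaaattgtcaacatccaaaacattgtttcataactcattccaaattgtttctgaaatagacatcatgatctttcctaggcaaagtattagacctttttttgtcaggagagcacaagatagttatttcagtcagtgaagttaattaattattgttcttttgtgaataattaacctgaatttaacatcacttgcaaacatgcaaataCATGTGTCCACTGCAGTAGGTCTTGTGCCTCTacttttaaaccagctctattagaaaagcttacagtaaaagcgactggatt

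The common run lies 52 bases before the RefSeq start of Ugt1a9 and 32 bases before that of Ugt1a10. Neither window held any of the 4 motifs searched.

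Of the 9 Ugt2 and Ugt3 members, 1 was called between zones by edgeR. DESeq2 also called Ugt2b1 in fed mice (0.72, adjusted p = 0.0372) and Ugt2b35 in fasted mice (0.91, 0.0227). Ugt2b1, of the Ugt2b group that glucuronidates steroids and bile acids, stood at 357.4, 501.5 and 289.4 CPM in fed PC against 260.9, 240.8 and 204.3 in fed PP, without overlap and without a call (log2 0.70 ± 0.23, edgeR adjusted p = 0.125). In fasted mice it stood at 241.4, 458.1 and 303.2 CPM in PC against 161.3, 169.3 and 179.8 in PP, again without overlap, and was called (0.97 ± 0.23, 0.0280). That call held without fasted PC library 1 (1.16) and ended without fasted PC library 2 (0.68, edgeR adjusted p = 0.109) or 3 (0.0555), without fasted PP library 1 (0.0995), 2 (0.0827) or 3 (0.0781), and when only the fasted libraries entered the fit (0.0557). Without a call by edgeR, Ugt2b34, Ugt2b35, Ugt2b36 and Ugt3a1 were higher in fasted PC without overlap, and Ugt2a3 was so in fed PC. Of all tested genes, 11.4% lay higher without overlap in fasted PC and 12.9% in fed PC. Over all 12 libraries, Ugt2b36 ran from 480.5 to 692.9 CPM and Ugt2a3 from 277.6 to 369.5 CPM. Ugt3a2, of a group known to use other sugars, ran from 380.4 to 546.0 CPM. Ugt2b34 ran from 398.4 to 707.0 CPM, Ugt2b5 from 574.8 to 1061 CPM, Ugt3a1 from 45.2 to 124.8 CPM and Ugt2b35 from 122.5 to 392.7 CPM, the last with its highest value in fasted PC library 2. Ugt2b5 shares 56.4% of its words with other genes, among them Ugt2b37. The Ugt2 members lie between 86889767 and 87337195 on chromosome 5.

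Among the sulfotransferases, Sult5a1 had the largest zone difference of any called member in fed mice. It stood at 0.320, 0.661 and 0.588 CPM in fed PC, 9 to 19 counts, and at 10.3, 17.6 and 10.6 CPM in fed PP, 203 to 375 counts. After fasting it stood at 1.65, 0.301 and 0.443 CPM in PC and at 8.28, 11.2 and 3.37 CPM in PP. The PP libraries lay above every PC library in both states, and the highest PC value was that of fasted PC library 1. The log2 fold change was -4.61 ± 0.61 in fed mice (edgeR adjusted p = 0.00140) and -3.21 ± 0.59 in fasted mice (0.00805), or -4.33 without fasted PC library 1 and -2.84 without library 2. The fasted call ended when only the fasted libraries entered the fit (0.0580) and held whichever library was left out. Sult5a1 spans chr8:123140192-123158315 (GRCm38, minus strand).

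Sult2a8, which sulfates bile acids in mouse liver, stood at 558.2, 548.9 and 410.8 CPM in fed PC, 330.0, 291.0 and 161.0 in fed PP, 391.7, 264.6 and 274.1 in fasted PC, and 123.3, 96.0 and 53.9 in fasted PP. PC libraries lay above PP libraries in both states. The zone difference was called in fasted mice, at log2 1.77 ± 0.33 (edgeR adjusted p = 0.00863), and not in fed mice, at 0.96 ± 0.32 (0.138), where DESeq2 called it (0.97, adjusted p = 0.0194). The fasted call held whichever library was left out, at 1.56 without fasted PC library 1 and 1.87 without library 2, and the test of fasting against zone did not show that the states differ. The Sult2a8 promoter, chr7:14446538-14446837 (GRCm38.p6, minus strand, from RefSeq), is shown because this member differed between zones and with fasting and its window alone among the members' held CTTTGAT, marked in capitals as read on the reverse strand.
Sult2a8: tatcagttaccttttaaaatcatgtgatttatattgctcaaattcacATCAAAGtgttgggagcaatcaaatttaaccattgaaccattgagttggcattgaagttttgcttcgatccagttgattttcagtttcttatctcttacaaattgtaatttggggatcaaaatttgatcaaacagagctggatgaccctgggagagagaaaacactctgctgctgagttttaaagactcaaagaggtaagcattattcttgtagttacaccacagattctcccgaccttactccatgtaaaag

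Sult1b1 and Sult1d1, from neighbouring genes on chromosome 5, were higher in PC in fed mice. Sult1d1, known for sulfating catecholamines, stood at 280.2, 308.9 and 277.8 CPM in fed PC and at 213.5, 165.1 and 177.4 CPM in fed PP, without overlap (log2 0.64 ± 0.13, edgeR adjusted p = 0.0104). In fasted mice it stood at 351.5, 329.3 and 376.3 CPM in PC and at 309.4, 316.5 and 254.2 CPM in PP, without overlap and without a call (0.27, 0.271). The fed call of Sult1d1 ended without fed PP library 2 (0.58, edgeR adjusted p = 0.0562). Sult1b1, which sulfates thyroid hormones and phenols, stood at 26.0, 34.6 and 33.3 CPM in fed PC and at 12.2, 17.1 and 13.7 CPM in fed PP (1.13 ± 0.26, edgeR adjusted p = 0.0297). In fasted mice it stood at 27.8, 25.8 and 28.6 CPM in PC and 18.6, 19.7 and 8.25 in PP (0.82 ± 0.26, 0.0989). Groups of Sult1b1 did not overlap in either state. Its fed call ended without fed PC library 2 (0.107) or 3 (0.102) or fed PP library 1 (0.0980), 2 (0.0530) or 3 (0.0943). Sult1a1, the main phenol sulfotransferase, was not called in any comparison: it stood at 372.7, 392.4 and 384.8 CPM in fed PC, 481.4, 470.6 and 399.5 in fed PP, 555.6, 370.9 and 406.8 in fasted PC, and 651.9, 488.4 and 442.0 in fasted PP. Its exons overlap Sgf29 on the opposite strand.

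Fasting changed few members. In PC hepatocytes 1 of 49 rose and 1 fell (4.08%), where 21.4% of all tested genes were called (11.1% higher and 10.2% lower in fasted). In PP hepatocytes 2 rose and 3 fell (10.2%), where 17.9% of all tested genes were called (8.39% higher and 9.50% lower). The median log2 fold change of the members (fasted over fed) was 0.14 in PC and -0.24 in PP, beside 0.00 and 0.01 for all tested genes. Fed and fasted libraries did not overlap for 9 members in PC (4 higher and 5 lower) and for 14 in PP (3 higher and 11 lower), where 41.7% (21.5% and 20.2%) and 34.6% (16.8% and 17.8%) of all tested genes did not. Of 17 Ugt members, 0 were called in either zone by edgeR, while 1 in PC and 2 in PP had an unadjusted p under 0.05, and DESeq2 called 1, Ugt1a1 in PC (0.30, adjusted p = 0.0407). Over all members DESeq2 called 2 higher and 2 lower members in PC and 3 higher and 6 lower in PP. The 3 members that fell in PP became 1 without fed PP library 2, 5 without fasted PC library 1 and 7 without fasted PC library 2. The 2 that rose in PP became 1 without fed PP library 2 or 3. In PC the 1 that fell became 0 without fed PC library 1 or 3 or fasted PC library 3, and 2 without fasted PP library 2 or 3.

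Gsto1 was the only member called in both zones on fasting, which is 50% of the members called in PC and 20.0% of those called in PP. Of all tested genes, 1544 were called in 1 direction in both zones, 59.8% of those called in PC and 71.4% of those called in PP. Its fasted PC libraries (142.3, 120.5 and 106.0 CPM) all lay above the fed PC libraries (88.4, 83.2 and 81.9), and its fasted PP libraries (198.1, 167.4 and 163.8) above the fed PP libraries (139.1, 124.8 and 117.4). It rose by 0.54 ± 0.12 on the log2 scale in PC (edgeR adjusted p = 0.00823) and by 0.47 ± 0.12 in PP (0.0191). The call in PC held whichever library was left out, at 0.40 without fasted PC library 1 and 0.56 without library 2. That in PP ended without fed PP library 2 (0.0571) or 3 (0.0634) or fasted PP library 1 (0.0614). Sult1d1 rose in PP, from 213.5, 165.1 and 177.4 CPM in fed to 309.4, 316.5 and 254.2 CPM in fasted libraries, with no overlap (0.66 ± 0.13, edgeR adjusted p = 0.00365), and was called whichever library was left out. In PC Sult1d1 did not overlap either, at 0.29 (adjusted p = 0.125).

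Sult2a8, Gsta3 and Gsta4 fell in PP on fasting, and Gstm5 fell in PC. Sult2a8 went from 330.0, 291.0 and 161.0 CPM in fed PP to 123.3, 96.0 and 53.9 CPM in fasted PP, with every fasted library below every fed one. Its log2 fold change was -1.52 ± 0.33 (edgeR adjusted p = 0.00891), called whichever library was left out. In PC it was -0.71 ± 0.32 (0.143). There edgeR called it only when the PC libraries alone entered the fit (-0.73, 0.0246) or with the replicate numbers as a block (-0.71, 0.0151). Gsta3 went from 1241, 1165 and 1251 CPM to 954.2, 992.3 and 733.9 CPM in PP (-0.45 ± 0.12, edgeR adjusted p = 0.0244). In PC Gsta3 went from 2057, 2069 and 2279 CPM to 1610, 1737 and 1701 CPM, also without overlap and without a call (-0.34 ± 0.12, 0.0652). The PP call of Gsta3 ended without fed PP library 1 (0.0617), 2 (0.0525) or 3 (0.0627) or fasted PP library 3 (-0.31, 0.0843), and when only the PP libraries entered the fit (0.0874). Gsta4 went from 135.9, 135.7 and 145.3 CPM to 85.8, 89.8 and 99.6 CPM in PP, without overlap (-0.60 ± 0.17, edgeR adjusted p = 0.0278). Its PP call ended without fed PP library 1 (0.0525), 2 (0.0642) or 3 (0.0839) or fasted PP library 1 (0.0957) or 2 (0.0754). In PC, Gsta4 was called lower (-0.40, 0.0279) once fasted PC library 2 was left out.

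Gstm5, a minor mu-class member, stood at 8.99, 8.31 and 10.3 CPM in fed PC and at 6.39, 6.32 and 5.99 CPM in fasted PC, without overlap (log2 -0.56 ± 0.17, edgeR adjusted p = 0.0308). That call ended without fed PC library 1 (0.0650) or 3 (0.126) or fasted PC library 2 (-0.57, 0.0768) or 3 (0.0730), held without fasted PC library 1 (-0.60), and ended with genes of low counts kept in the test (0.0509). Exons of Gstm5 overlap 4933431E20Rik on the opposite strand, which holds 11.1% of its words. In PP, all 7 mu-class members had a negative log2 fold change on fasting and 5 did not overlap between fed and fasted libraries, where 17.8% of all tested genes lay lower without overlap, but 0 were called by edgeR, while 3 had an unadjusted p under 0.05 and DESeq2 called 3 of them lower, Gstm4, Gstm6 and Gstm7.

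**Figure D4:**
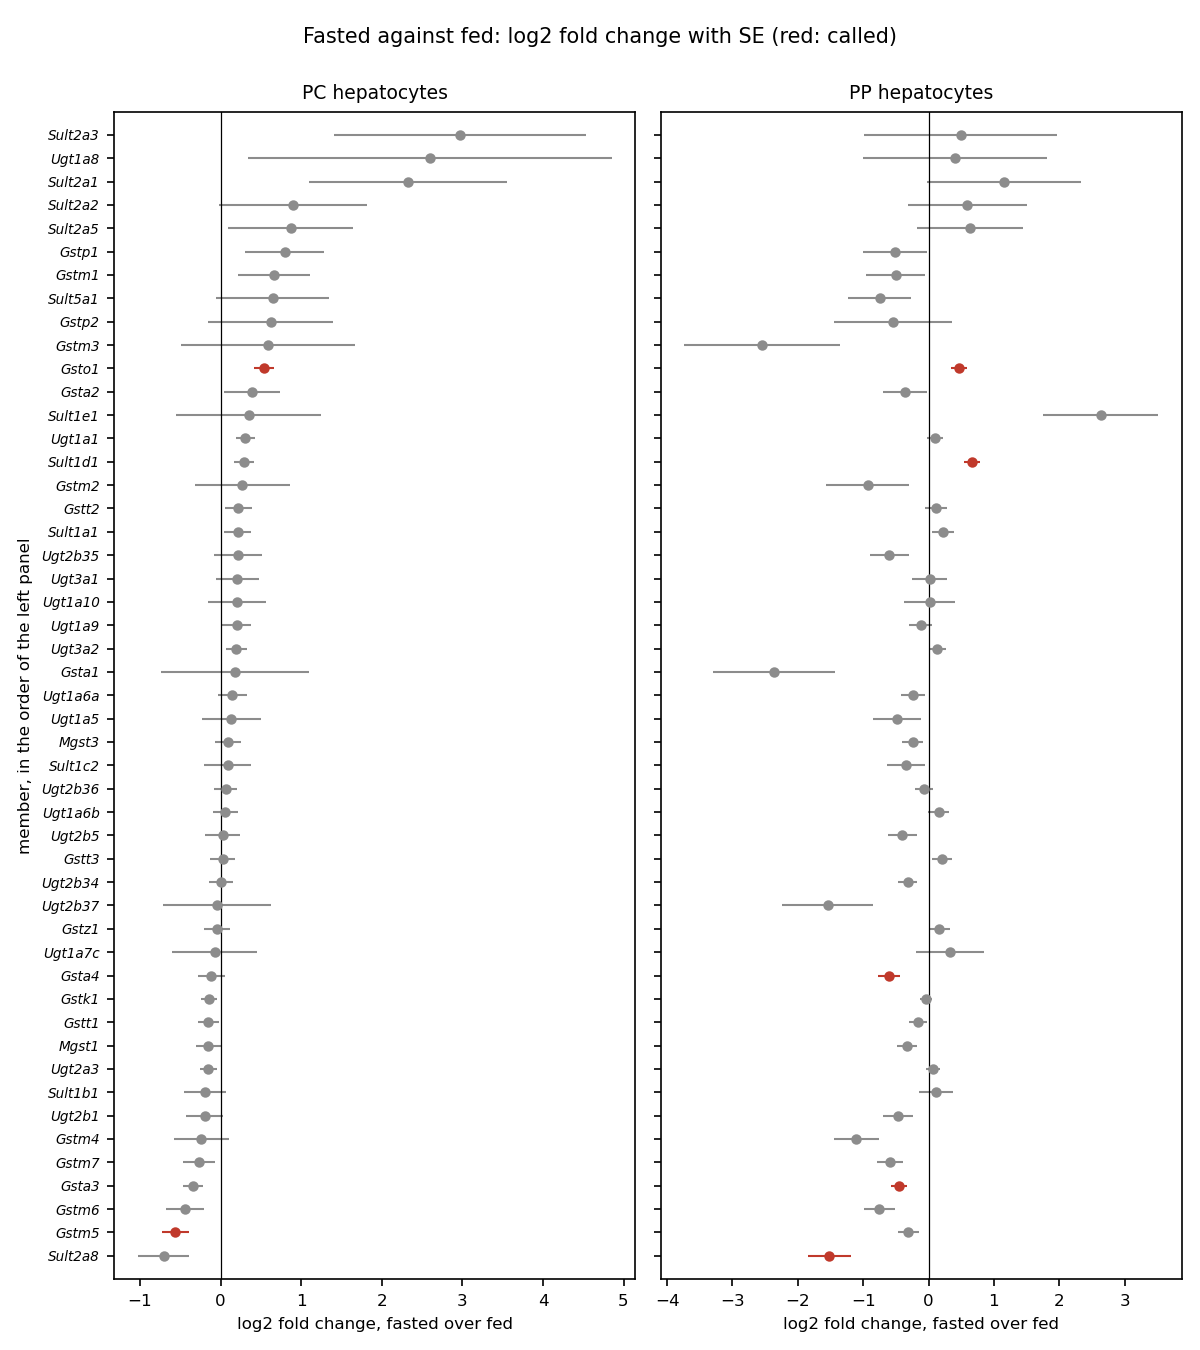
Log2 fold change of fasted over fed for each of the 49 members in PC and in PP hepatocytes (x axis, log2 units, lines are the standard error), in red for members called by edgeR and in grey for the others. Gsto1, at 0.54 in PC and 0.47 in PP, is red in both zones, and Sult2a8 at -1.52 is the lowest red point in PP.

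Whether fasting acted differently in the zones was tested by the interaction term. 0 of 49 members and 0.00% of all tested genes were called by edgeR. At an unadjusted p under 0.05, 0 members and 465 of all tested genes passed, and DESeq2 called 0 members. The interaction was positive, that is the fasting change was higher in PC, for 38 of 49 members (77.6%) and 52.3% of all tested genes, with medians of 0.31 and 0.02. Without fasted PC library 2 it was positive for 35 members with a median of 0.17, and without library 1 for 30 members with a median of 0.26. Members called in 1 zone only, such as Sult2a8 in PP, were therefore not shown to respond differently there.

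Summed over all 49 members, levels were 14140 ± 576 CPM in fed PC, 11970 ± 720 in fed PP, 15100 ± 2332 in fasted PC and 10780 ± 1208 in fasted PP (SD, n = 3). The Gst sum was 7236 ± 188 CPM in fed PC against 5296 ± 291 in fed PP, and 7362 ± 2283 in fasted PC against 4214 ± 354 in fasted PP. The Ugt sums lay closer together, at 5455, 5380, 5909 and 4932 CPM in the same order, and the Sult sums were 1448, 1296, 1833 and 1630 CPM. These sums were not tested.

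Several members varied more between the libraries of a group than between groups. These were chosen after their values were seen. Gstm3 stood at 12.0, 350.9 and 73.3 CPM in fasted PC, against 4.82, 6.33 and 14.1 in fasted PP and 55.8, 101.2 and 132.5 in fed PC, and at 15.4, 20.6 and 112.1 in fed PP. It was not called between zones in fasted mice (log2 4.11 ± 1.25, edgeR adjusted p = 0.0998), but was called by DESeq2 and by edgeR without fasted PC library 1 (4.64, 0.0290), while without library 2 its difference was 2.34 (0.341). Gstm1 was likewise called without library 1 (1.49, edgeR adjusted p = 0.0276) and had a difference of 0.26 without library 2 (0.718). Gsta1 stood at 1.34, 15.6 and 2.22 CPM in fasted PC. In fasted PC, library 2 held the highest values of Gsta1, Gstm1, Gstm2, Gstm3 and Gstp1, and 29 of the 49 members were highest of the group there. Fasted PP library 2 was likewise the highest of its group for 31 of the 49 members and 11 of the 19 Nrf2 targets. Fed PP library 3 was so for 14 of the 49 members and 10 of the 19 Nrf2 targets. The shares over all tested genes are not given here, so these counts do not set the members apart from other genes. In fasted PC library 2 stood the highest fasted PC values of other genes that Nrf2 is known to drive. Nqo1, a quinone reductase, stood there at 51.0 CPM, against 14.4 and 16.4 in fasted PC libraries 1 and 3. Cbr3, a carbonyl reductase, stood at 12.2 against 0 and 0, and Abcc4, an exporter, at 51.3 against 9.32 and 10.97. The summed list of 19 Nrf2 targets was 4692 CPM in fasted PC library 2, against 2663 and 3382 CPM in libraries 1 and 3. The part of these genes, or of the erythroid markers named above, in the members' values was not tested.

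The Sult2a genes that sulfate steroids and bile acids ranged widely in every group. Sult2a1 stood at 116.9, 28.5 and 78.1 CPM in fed PC, 365.4, 174.5 and 17.3 in fed PP, 877.9, 45.0 and 198.9 in fasted PC, and 406.0, 674.3 and 161.5 in fasted PP. Sult2a2 stood at 210.0, 58.8 and 163.5 CPM in fed PC, 286.6, 194.2 and 18.7 in fed PP, 490.9, 80.9 and 233.7 in fasted PC, and 250.5, 359.8 and 144.3 in fasted PP. In each group both genes had the same library highest and the same library lowest. Sult2a2 shares 74.5% of its words with other genes, Sult2a1 55.6% and Sult2a5 51.1%, and the part of this sharing in the likeness of their values was not tested. Summed with Sult2a5, they had log2 fold changes of -0.65 ± 1.05 (zone, fed), -0.03 ± 1.04 (zone, fasted), 1.53 ± 1.07 (fasting, PC) and 0.92 ± 1.05 (fasting, PP), none called. Sult2a3 was highest in fasted PC library 1, at 82.9 CPM, with 0.416 to 26.5 CPM in the other 11. Sult1e1, which inactivates oestrogens, stood at 14.1 CPM in fasted PP library 2 and at 0.348 to 2.46 CPM in the other 11 libraries.

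**Figure D5:**
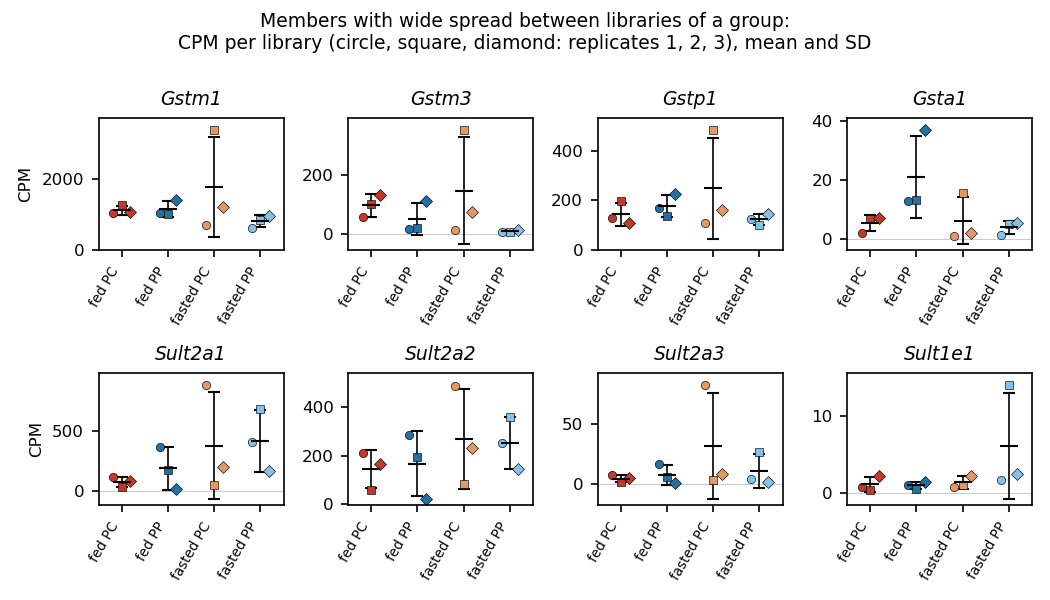
CPM per library (y axis) for 8 members with wide spread inside groups, with 1 point per library in each of the 4 groups and black lines for the group mean and SD. Gstm1, Gstm3, Gstp1 and Gsta1 have their highest fasted PC value in library 2, and Sult2a1, Sult2a2 and Sult2a3 have theirs in library 1.

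Sequence shared between paralogs limits which members can be read alone. At least 20% of the 31-letter words of 20 members occur in transcripts of another gene: Gsta1, Gsta2, Gstm1, Gstm3, Gstp1, Gstp2, Sult2a1, Sult2a2, Sult2a3, Sult2a5, Ugt2b5, Ugt2b37 and the 8 Ugt1a members. The other 29 lie below that share, among them Gstm2 at 12.2%, Gstm6 at 9.62% and Gstm5 at 11.1%. Among those 29, 6 were higher and 3 lower in PC in fed mice and 6 and 2 in fasted mice. Among the 20 that share sequence, 2 were higher and 2 lower in fed mice and 3 and 1 in fasted mice, and 0 were called with fasting in either zone by edgeR (1 in PC and 2 in PP at an unadjusted p under 0.05, and 1 by DESeq2, Ugt1a1 in PC). Gstp1 with Gstp2 (log2 1.01 ± 0.49 between zones in fasted mice, edgeR adjusted p = 0.309) and Ugt2b5 with Ugt2b37 (0.15, 0.777) were not called as sums either.

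The genes that supply and follow conjugation were read from lists of known members. Of 18 genes called in both comparisons of a kind, 8 had calls that held whichever library was left out, and these are named. Abcc3, Gss and Cbs, outside these 8, are named where a count would not show which gene it stands for. All named genes were chosen after their values were seen. For comparison, edgeR called 4.72% of all tested genes between zones in fed mice and 6.40% in fasted mice. With fasting it called 21.4% in PC and 17.9% in PP. The counts of the lists were not tested against these shares. Of 7 tested genes of PAPS supply, edgeR called 0 between zones (0 in fed and 1 in fasted mice at an unadjusted p under 0.05). With fasting 2 of them fell in PC (28.6%) and 3 fell in PP (42.9%). Slc26a1, a sulfate transporter, stood at 257.6, 311.6 and 325.7 CPM in fed PC against 145.4, 138.9 and 144.7 in fasted PC, and at 189.3, 248.8 and 301.7 in fed PP against 122.7, 165.5 and 144.9 in fasted PP. Fed and fasted libraries did not overlap, at log2 -1.06 ± 0.17 in PC (edgeR adjusted p = 0.000933) and -0.77 in PP (0.00685). Of 6 genes of UDP-glucuronate supply, edgeR called 0 between zones in fed mice (1 at an unadjusted p under 0.05), 1 was lower in PC in fasted mice, 1 rose and 1 fell with fasting in PC, and 1 fell in PP. Of 10 tested genes of glutathione synthesis and turnover, 2 rose and 0 fell with fasting in each zone. The gene called lower in PC was not the same in both feeding states. It was Gss in fed mice (log2 -0.615, edgeR adjusted p = 0.0166), not called in fasted mice (0.0695). In fasted mice it was Cbs (-0.625, 0.0331), not called in fed mice (0.105). Oplah, which returns oxoproline to glutamate in glutathione turnover, rose by 0.76 in PC, from 126.2, 121.0 and 99.9 CPM to 183.7, 192.1 and 213.1 CPM, and by 0.60 in PP, from 141.3, 126.7 and 123.4 CPM to 193.7, 202.3 and 199.1 CPM.

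Of 5 tested genes that turn glutathione conjugates into mercapturates, 1 was higher in PC in each feeding state, Anpep, an aminopeptidase that cleaves cysteinylglycine. Anpep stood at 149.0, 141.0 and 151.2 CPM in fed PC against 85.4, 91.5 and 100.6 in fed PP, and at 170.4, 196.6 and 212.6 CPM in fasted PC against 89.3, 110.9 and 119.4 in fasted PP, at log2 0.67 and 0.86 (0.93 without fasted PC library 1 and 0.85 without library 2). Anpep was also called higher with fasting in PC (0.39 ± 0.12, edgeR adjusted p = 0.0389), and not in PP (0.205, 0.286). Of 9 tested exporters of conjugates, 1 was higher and 1 lower in PC in fed mice and 2 and 1 in fasted mice. With fasting, 1 exporter rose in PC and 1 fell in PP. Of 6 genes that remove conjugates, 1 was higher and 1 lower in PC in fed mice and 1 and 2 in fasted mice. Of 13 other conjugating enzymes, which use amino acids or methyl groups, edgeR called 0 between zones in fed mice (6 at an unadjusted p under 0.05), and 2 were higher and 2 lower in PC in fasted mice. With fasting 1 of them rose in PC (7.69%), and 2 rose and 3 fell in PP (38.5%). Beside these lists, edgeR called 4.72% of all tested genes between zones in fed and 6.40% in fasted mice. With fasting it called 21.4% of all tested genes in PC and 17.9% in PP.

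Of 19 regulators of these families, 1 was higher in PC in fed mice (5.26%), and 1 higher and 1 lower in fasted mice (10.5%). Of all tested genes, 4.72% and 6.40% were called there. Ahr, the aryl hydrocarbon receptor, stood at 56.7, 68.3 and 57.6 CPM in fed PC against 19.5, 6.34 and 14.7 in fed PP, and at 34.8, 85.1 and 48.0 CPM in fasted PC against 10.7, 10.2 and 8.48 in fasted PP. Its zones did not overlap, at log2 2.17 ± 0.39 in fed (edgeR adjusted p = 0.0104) and 2.51 in fasted mice (2.76 without fasted PC library 1 and 2.08 without library 2). With fasting, 4 regulators rose and 3 fell in PC (36.8%, where 21.4% of all tested genes were called). In PP 6 regulators rose and 2 fell (42.1%, where 17.9% of all tested genes were called). Nr1i2, the xenobiotic receptor PXR, rose by 1.08 in PC, from 61.0, 61.1 and 76.7 CPM to 108.2, 138.3 and 173.5 CPM, and by 1.02 in PP, where its fasted libraries stood at 120.3, 146.8 and 154.5 CPM. Its partner Rxra rose by 0.59 and 0.55. Fed and fasted libraries of Nr1i2 and Rxra did not overlap in either zone. Of 18 tested Nrf2 targets outside the 3 families, 1 was higher in PC in fed (5.56%) and 3 in fasted mice (16.7%). With fasting 1 rose and 2 fell in PC (16.7%) and 0 rose and 5 fell in PP (27.8%). Me1 and Pgd, which make NADPH, fell in both zones, Me1 by 2.15 on the log2 scale in PC and 1.96 in PP, and Pgd by 2.16 and 2.47.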

How the data were processed

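Per the submitters' processing notes, the authors quantified reads with kallisto 0.46.0 and mm10, and they deposited estimated counts per gene, not normalized. How transcripts were summed to genes is not given in the sources used here. Per the labels, libraries were made with NEBNext Ultra, which does not mark strand. Estimated counts were rounded, since 27.9% to 32.7% of values per library were not whole. Genes passing edgeR's filterByExpr (12086) were scaled by TMM, and edgeR 4.0.16 fitted 1 mean per group over all 12 libraries (R 4.3.3; robust quasi-likelihood fit, 8 residual degrees of freedom, common biological coefficient of variation 0.2055). Calls are adjusted p-values (Benjamini-Hochberg, over all genes tested) under 0.05. Standard errors are the log2 fold change divided by the root of the test statistic. Scripts were tested on simulated data. The members, gene lists and tests were chosen with earlier results of these data known. Values are given for called members averaging 5 CPM or more and for anchor genes of each family, and other members were named after their values were seen. Shared words of 31 letters, the default of kallisto, and coordinates came from GENCODE M21 transcripts (GRCm38), and levels per kilobase use the median length of a gene's coding transcripts. Alternatives were DESeq2 1.42.0, RLE size factors, no count filter, only the groups compared, a replicate block, summed paralogs and leaving out each library.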

Additional observations from a re-analysis of the deposited data

How the results depend on the processing

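Of the 32 calls of members in the 4 comparisons of groups, 18 held without any 1 library. Under every alternative that tested the member by itself, 14 held. Among the 14 are the zone calls of Ugt1a9 and Ugt1a6b, which could not be tested with paralogs summed, where the Ugt1a sum was not called. None of the 32 calls changed direction. DESeq2 and RLE size factors ended 0 calls, no filter on low counts 3, a fit to only the groups compared 7 and a replicate block 1 (Gsta2 between zones in fed mice, adjusted p = 0.0516). The block gave each replicate number 1 effect across all 4 groups, so fed and fasted libraries of a number shared it. It therefore cannot show how the calls depend on pairing by mouse within a feeding state. With paralogs summed, each cluster was tested as a sum and its members were not tested alone. Then 3 genes or sums in place of 5 members were lower in fed PC, and Ugt1a9 and Gsta2 entered only as parts of sums. Ugt1a6a, Ugt1a6b and Ugt1a10 likewise entered only the Ugt1a sum. DESeq2 gave 14 members higher in fasted PC in place of 9, 2 higher and 2 lower with fasting in PC, and 6 lower with fasting in PP in place of 3. Only the groups compared gave 5 higher and 1 lower in fasted PC, and 3 lower with fasting in PC. No filter gave 0 lower with fasting in PC. The replicate block gave 2 lower with fasting in PC and 7 lower with fasting in PP. Under the block Sult2a8 was also called between zones in fed mice (1.01, adjusted p = 0.00744) and with fasting in PC (-0.71, 0.0151), and Mgst3 between zones in fasted mice (0.0412). Of 18 same-numbered pairs of libraries, 3 had correlated deviations over 0.1, all of them among the 6 PC and PP pairs within a feeding state (range -0.115 to 0.269). Not every pair reached 0.1, so the numbers were not used as pairs, and whether they mark a shared mouse was not settled. Leaving out 1 library gave 4 to 9 higher and 2 to 5 lower in fed PC, 8 to 11 higher and 2 to 4 lower in fasted PC, 0 to 2 lower with fasting in PC, and 1 to 3 higher and 1 to 7 lower with fasting in PP. Depth limits members of few counts, such as Ugt1a8, Gstp2 and Sult5a1 in PC.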
